A study of Mus musculus with 6 samples.

Results

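The genes of Notch signaling were examined in RNA-seq of small intestinal adenomas from *Apc*Min mice with and without Paneth cell (PC) deletion. The members are 10 genes chosen by name among the 48440 genes of the deposited tables. They are the ligands *Dll1*, *Dll4*, *Jag1* and *Jag2*, the receptors *Notch1*, *Notch2* and *Notch3*, the modifier *Lfng*, the target *Hes1* and the secretory lineage factor *Atoh1*. All 10 were found in each of the 6 libraries. All mice carried the ApcMin allele, a truncating mutation of the *Apc* tumor suppressor that gives rise to intestinal adenomas, on a C57BL/6 background. The ApcMin.PCdel group (libraries QC3, QC8 and QC10) carried in addition a *Defa4*-Cre knock-in, made in 129/svJ embryonic stem cells, and a *Rosa26* iDTA/WT allele. Cre from the *Defa4* locus, a defensin gene of PCs, removes the stop cassette of the *Rosa26* allele and turns on diphtheria toxin A. The deletion thus reaches cells that have used the *Defa4* locus. The ApcMin group (QC4, QC5 and QC6) are by the study's methods littermates with *Rosa26* iDTA/WT and no Cre, co-housed with the deleted mice. The labels give an age above 42 days, and sex is not given per library. The labels name the tissue only as adenoma polyp and do not say how many polyps or which mouse each library came from, so p-values measure the spread between these samples.

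Notch signaling passes between touching cells. A Delta or Jagged ligand on one cell binds a Notch receptor on its neighbor, the receptor is cut, and its intracellular domain joins the DNA-binding factor RBPJ to switch on repressors such as *Hes1*. In the intestinal crypt *Hes1* keeps *Atoh1* off in stem and absorptive progenitor cells, *Atoh1* drives the secretory lineages, and PCs are known to present *Dll1* and *Dll4* to the stem cells beside them.

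The libraries held 5.407 to 5.876 gigabases of aligned sequence, and genotypes were compared by limma on log2(FPKM + 1), where FPKM is the fragment number scaled for transcript length and library size. The pseudocount of 1 understates changes of genes near 1 FPKM. Of the 9 PC markers listed, all 9 had negative fitted log2 fold changes in ApcMin.PCdel, although the mean FPKM of *Ang4* was about equal (547 and 554), and 5 of them passed at an unadjusted limma p under 0.05 (*Defa21*, *Defa22*, *Lyz1*, *Mptx2* and *Itln1*), and none at an adjusted p under 0.05. Each ApcMin.PCdel library held less *Lyz1* (950.0 to 1148 FPKM) than each ApcMin library (1672 to 2281 FPKM). *Defa21* lay between 20.2 and 35.4 FPKM in the ApcMin.PCdel libraries and between 129 and 352 FPKM in the ApcMin libraries. Both genes share sequence with close paralogs, so reads may be assigned among them. The 7 epithelial markers were expressed throughout, with a summed level of 4313 to 6206 FPKM, and no listed marker of any cell type was at 0 in all 6 libraries. QC6 stood apart within the ApcMin group. Its enterocyte markers summed to 25053 FPKM against 9204 to 14843 FPKM in the other 5 libraries, and it was the lowest library in 46.1% of the 14240 genes tested. For the members, values without QC6 are given where leaving it out changed a direction or the overlap of the groups.

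At a Benjamini-Hochberg adjusted p-value of 0.05, limma called 0.0140% of all genes tested (2 genes) and 0 of the 10 Notch genes. At an unadjusted p-value of 0.05 it called 3.38% of all genes (384 higher and 97 lower in ApcMin.PCdel) and again 0 of the 10. The groups did not overlap in 7.54% of all genes, and overlapped in each of the 10. All 10 passed the filter of a mean of 1 FPKM over the 6 libraries. By their fitted values, 4 lay higher and 6 lower in ApcMin.PCdel adenomas, with a median log2 fold change of -0.01, where the median over all genes tested was 0.04 and 63.1% of genes lay higher. Without QC6 only *Dll1* lay higher (0.07), the log2 fold changes of the 10 genes ran from -0.23 to 0.07, and the smallest unadjusted limma p was 0.0696. The 95% intervals of the 10 genes, as folds of FPKM + 1, reached from 0.642 at the lowest to 1.48 at the highest, so changes larger than these limits lie outside the intervals and smaller ones in either direction lie within them. The adjusted p-value was 1.0 for each of the 10 genes.

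**Figure D1:**
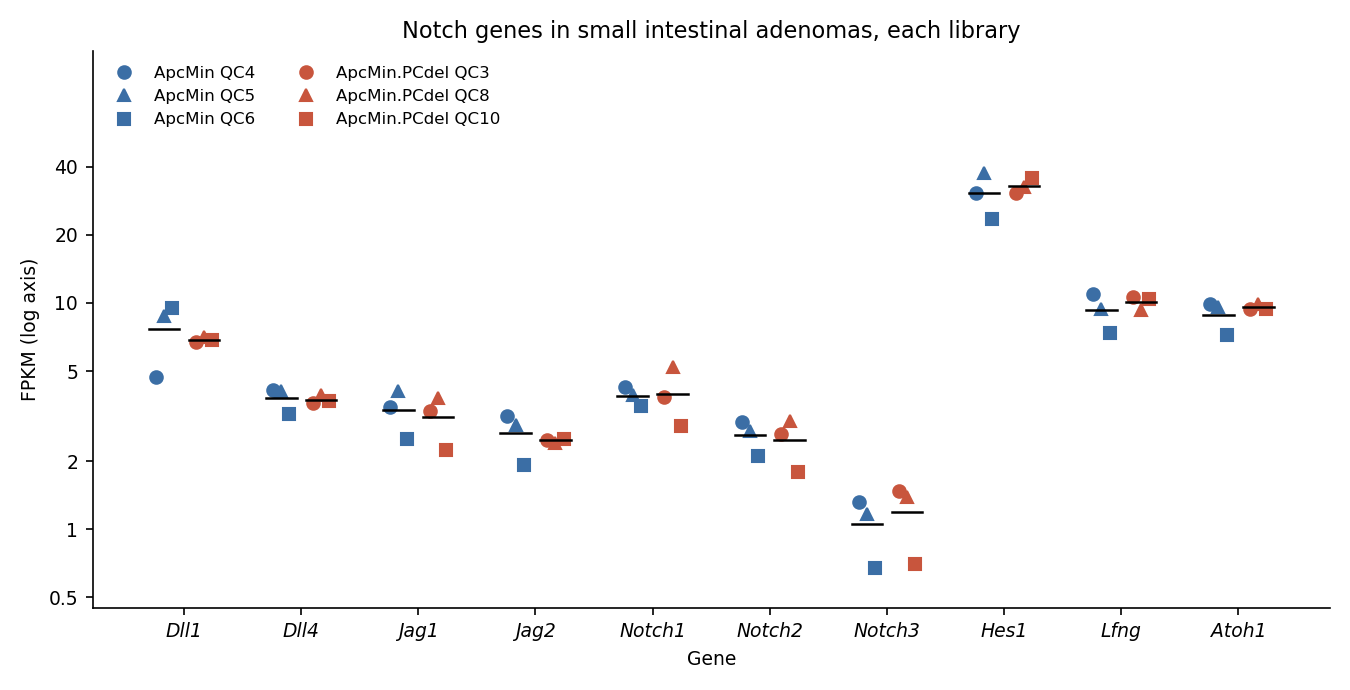
FPKM (log axis) of the 10 Notch genes in each library of ApcMin (blue) and ApcMin.PCdel (red) adenomas, with black lines at the group means (n = 3 libraries each). The groups overlap in each gene, and the squares, libraries QC6 and QC10, are the lowest pair in *Jag1*, *Notch1*, *Notch2*, *Notch3* and *Atoh1*.

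The Delta ligands are the members most often tied to PCs. *Dll1* (chr17:15367354-15376872, minus strand, GRCm38) encodes a ligand of early secretory progenitors and PCs. It was measured at 4.72, 8.8 and 9.46 FPKM in ApcMin libraries QC4, QC5 and QC6 and at 6.7, 7.06 and 6.85 FPKM in ApcMin.PCdel libraries QC3, QC8 and QC10. The ApcMin libraries enclosed the ApcMin.PCdel libraries on both sides, with QC4 the lowest of all 6 and QC6 the highest. The means were 7.66 ± 2.57 FPKM (SD, n = 3) and 6.87 ± 0.183 FPKM (SD, n = 3). The log2 fold change was -0.09 (standard error 0.23, 95% interval -0.64 to 0.46, limma unadjusted p = 0.712; exact two-sided permutation test, p = 1.0, where 0.1 is the smallest value possible). The call for *Dll1* depended on QC4. Without it the log2 fold change was -0.36 (standard error 0.11, limma unadjusted p = 0.0187, adjusted p = 0.981) and the groups no longer overlapped, as in 16.8% of all genes in that fit. The direction turned without QC5 (log2 fold change 0.02, limma unadjusted p = 0.927) and without QC6 (0.07, limma unadjusted p = 0.768).

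*Dll4* (chr2:119325784-119335962, plus strand) encodes a ligand of the crypt epithelium that is also expressed in endothelium. Its levels in QC4, QC5 and QC6 were 4.13, 4.1 and 3.24 FPKM, and in QC3, QC8 and QC10 they were 3.63, 3.93 and 3.67 FPKM. QC4 and QC5 were the highest pair and QC6 the lowest library, so the ApcMin values lay on both sides of the ApcMin.PCdel values. The means were 3.82 ± 0.502 and 3.74 ± 0.159 FPKM (SD, n = 3 each). This was the narrowest of the 10 intervals, with a log2 fold change of -0.02 (standard error 0.11, 95% interval -0.29 to 0.25, limma unadjusted p = 0.873; exact permutation p = 0.9). As a fold of FPKM + 1 that interval ran from 0.816 to 1.19. Of the 9 PC markers, 3 (*Defa21*, *Defa22* and *Lyz1*) had log2 intervals that did not meet that of *Dll4*, and 6 had intervals that did. For *Dll1*, the intervals of 2 markers (*Defa21* and *Defa22*) did not meet its own and those of 7 did. The study had already named *Defa21*, *Defa22* and *Lyz1* as low from this RNA-seq, so their distance is no independent result. In this bulk tissue, fewer cells of a type and less RNA per cell cannot be told apart.

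The Jagged ligands were the lower pair of ligands by mean FPKM. *Jag1* (chr2:137081456-137116644, minus strand), a ligand widely expressed in vessels, stroma and epithelium, was at 3.46, 4.09 and 2.51 FPKM in QC4, QC5 and QC6 and at 3.32, 3.8 and 2.23 FPKM in QC3, QC8 and QC10. Each group held 1 low library, QC6 and QC10, and otherwise the values interleaved. The means were 3.36 ± 0.795 and 3.12 ± 0.806 FPKM (SD, n = 3 each), a log2 fold change of -0.08 (standard error 0.2, 95% interval -0.56 to 0.4, limma unadjusted p = 0.687; exact permutation p = 0.6). *Jag2* (chr12:112908590-112929495, minus strand), the other Jagged ligand, was at 3.16, 2.89 and 1.92 FPKM in ApcMin and at 2.48, 2.41 and 2.51 FPKM in ApcMin.PCdel libraries, in the same order. The 3 ApcMin.PCdel values were nearly equal (coefficient of variation 2.11%) and lay between QC6 and the other ApcMin libraries (24.5% within that group). Its log2 fold change was -0.06 (standard error 0.15, 95% interval -0.42 to 0.3, limma unadjusted p = 0.706; exact permutation p = 0.8). Without QC6, the groups were apart in *Jag2* (log2 fold change -0.21, standard error 0.09, limma unadjusted p = 0.0696) and in *Dll4* (-0.11, standard error 0.09, limma unadjusted p = 0.271). In that fit 23.7% of all genes were apart.

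*Dll1* and *Dll4* together made up 57.2%, 64.9% and 74.1% of the FPKM of the 4 ligands in QC4, QC5 and QC6 and 64.0%, 63.9% and 68.9% in QC3, QC8 and QC10. The ApcMin libraries again spread wider than, and on both sides of, the ApcMin.PCdel libraries. The group means were 65.4% ± 8.47 and 65.6% ± 2.88 (SD, n = 3 each; exact two-sided permutation p = 1.0, adjusted p = 1.0 over 3 measures of balance). Their difference was 0.221 percentage points, and 4.58 without QC6 (exact permutation p = 0.4). Within libraries, *Dll1* exceeded *Dll4* by FPKM in 6 of 6, by 1.14-fold in QC4 to 2.91-fold in QC6.

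The receptors showed a common pattern across libraries and no separation of the genotypes. *Notch1* (chr2:26457903-26516663, minus strand), a receptor of crypt stem cells that is also active in endothelium and blood cells, was at 4.25, 3.93 and 3.49 FPKM in QC4, QC5 and QC6. In QC3, QC8 and QC10 it was at 3.85, 5.19 and 2.86 FPKM, so that both the highest and the lowest library were ApcMin.PCdel. The means of 3.89 ± 0.382 and 3.96 ± 1.17 FPKM (SD, n = 3 each) were nearly equal, and the log2 interval was centered on zero (standard error 0.18, 95% interval -0.44 to 0.44, limma unadjusted p = 0.995; exact permutation p = 1.0).

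*Notch2* (chr3:98013527-98150361, plus strand), the second receptor known from crypt stem cells, was at 2.97, 2.71 and 2.11 FPKM in QC4, QC5 and QC6 and at 2.65, 3.01 and 1.79 FPKM in QC3, QC8 and QC10. QC8 was highest and QC10 lowest, as for *Notch1*. The log2 fold change was -0.05 (standard error 0.17, 95% interval -0.47 to 0.36, limma unadjusted p = 0.761; exact permutation p = 0.7). *Notch3* (chr17:32120820-32166880, minus strand), a receptor known chiefly from the mural cells of vessels, was the lowest member at 1.32, 1.17 and 0.674 FPKM in ApcMin and 1.47, 1.39 and 0.702 FPKM in ApcMin.PCdel libraries. QC6 and QC10 lay far below the rest, and the other 4 libraries were between 1.17 and 1.47 FPKM. Its log2 fold change was 0.08 (standard error 0.2, 95% interval -0.39 to 0.56, limma unadjusted p = 0.69; exact permutation p = 0.5). Without QC6 the log2 fold change of *Notch3* was -0.06 (limma unadjusted p = 0.78). Leaving out QC10 set the *Notch3* groups apart (log2 fold change 0.25, standard error 0.18, limma unadjusted p = 0.206), as in 20.4% of all genes in that fit.

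*Notch1* made up 49.7%, 50.3% and 55.6% of the summed FPKM of the 3 receptors in QC4, QC5 and QC6 and 48.2%, 54.1% and 53.4% in QC3, QC8 and QC10. The ranges overlapped in part, with QC6 above every ApcMin.PCdel library and QC3 below every ApcMin library. The means were 51.9% ± 3.24 and 51.9% ± 3.21 (SD, n = 3 each; exact two-sided permutation p = 1.0, adjusted p = 1.0). Without QC6 the difference was 1.92 percentage points (exact permutation p = 0.4). *Notch4*, the receptor of endothelium, which is not among the 10 members, was at 3.77, 4.82 and 1.98 FPKM in ApcMin and 3.2, 3.1 and 2.35 FPKM in ApcMin.PCdel libraries. QC6 and QC10 were again its lowest pair, and it exceeded *Notch3* in 6 of 6 libraries.

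*Lfng* (chr5:140607320-140615545, plus strand) encodes Lunatic fringe, a glycosyltransferase that modifies Notch receptors and shifts their response toward Delta ligands. It was at 11.0, 9.39 and 7.37 FPKM in QC4, QC5 and QC6 and at 10.6, 9.34 and 10.4 FPKM in QC3, QC8 and QC10. QC4 was highest, QC6 lowest, and the ApcMin.PCdel libraries lay between them. The log2 fold change was 0.13 (standard error 0.15, 95% interval -0.23 to 0.49, limma unadjusted p = 0.42; exact permutation p = 0.7), the smallest unadjusted p among the 10 genes. Without QC6 the log2 fold change of *Lfng* was -0.01 (limma unadjusted p = 0.926). The other fringe genes, *Rfng* and *Mfng*, had log2 fold changes of -0.05 and 0.06 (limma unadjusted p = 0.577 and 0.564). *Rfng* was at the level of *Lfng*, which exceeded it in 4 of 6 libraries, and was 4.6-fold to 5.58-fold above *Mfng*.

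*Hes1* (chr16:30064384-30067796, plus strand), the repressor that serves as the usual readout of Notch activity in the crypt, was the most abundant member. It was at 30.7, 37.6 and 23.4 FPKM in QC4, QC5 and QC6 and at 30.7, 32.6 and 35.6 FPKM in QC3, QC8 and QC10. The ApcMin group held both the highest and the lowest library. The means were 30.6 ± 7.1 and 33.0 ± 2.46 FPKM (SD, n = 3 each), a log2 fold change of 0.13 (standard error 0.18, 95% interval -0.29 to 0.55, limma unadjusted p = 0.494; exact permutation p = 0.7). The sign of this difference turned when libraries were weighted by quality (-0.10) and without QC6 (-0.05, limma unadjusted p = 0.724).

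*Atoh1* (chr6:64729125-64731245, plus strand), the bHLH factor that specifies goblet, Paneth and enteroendocrine precursors and that *Hes1* represses, was at 9.87, 9.58 and 7.21 FPKM in QC4, QC5 and QC6. In QC3, QC8 and QC10 it was at 9.44, 9.93 and 9.39 FPKM. Only QC6 stood below the others, which lay within 9.39 to 9.93 FPKM. The means were 8.89 ± 1.46 and 9.59 ± 0.298 FPKM (SD, n = 3 each), a log2 fold change of 0.11 (standard error 0.13, 95% interval -0.2 to 0.42, limma unadjusted p = 0.435; exact permutation p = 0.8). Without QC6 the log2 fold change of *Atoh1* was -0.02 (limma unadjusted p = 0.821).

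The log2 ratio of *Hes1* to *Atoh1* was 1.64, 1.97 and 1.7 in QC4, QC5 and QC6 and 1.7, 1.72 and 1.92 in QC3, QC8 and QC10. QC6, the lowest library for both genes, had a ratio like the rest. The means of 1.77 ± 0.18 and 1.78 ± 0.12 (SD, n = 3 each) differed by 0.01 (exact two-sided permutation p = 0.8, adjusted p = 1.0 over 3 measures of balance). Without QC6 the difference was -0.03 (exact permutation p = 0.9). On the linear scale *Hes1* exceeded *Atoh1* by 3.11-fold to 3.93-fold by FPKM, and by 1.68-fold to 2.31-fold by the read coverage per gigabase described further on.

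**Figure D2:**
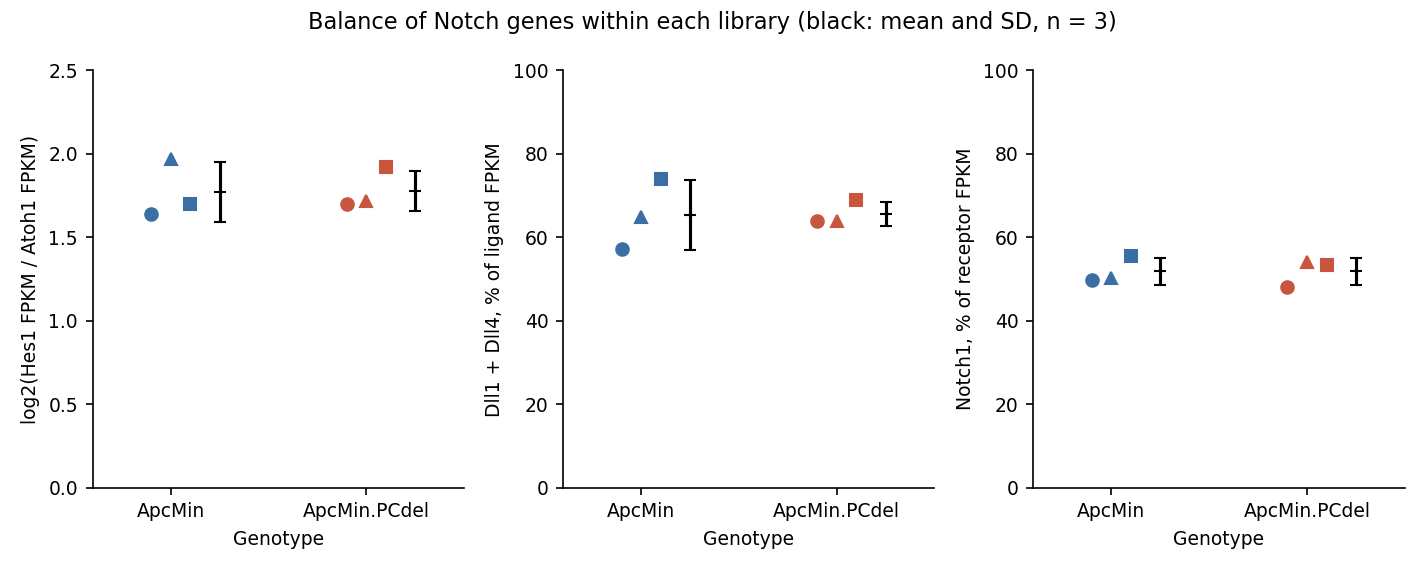
Measures of balance among Notch genes in each library by genotype: the log2 ratio of *Hes1* to *Atoh1*, the percent of ligand FPKM that was *Dll1* and *Dll4*, and the percent of receptor FPKM that was *Notch1*. Black bars give the mean and SD (n = 3); the means are 1.77 and 1.78, 65.4% and 65.6%, and 51.9% in both groups.

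By mean FPKM over all 6 libraries, *Hes1* (31.8 ± 4.93, SD, n = 6) stood first. It was followed by *Lfng* (9.68 ± 1.32), *Atoh1* (9.24 ± 1.02), *Dll1* (7.26 ± 1.68), *Notch1* (3.92 ± 0.781), *Dll4* (3.78 ± 0.336), *Jag1* (3.24 ± 0.728), *Jag2* (2.56 ± 0.425), *Notch2* (2.54 ± 0.489) and *Notch3* (1.12 ± 0.351). The steps from *Hes1* to *Lfng*, from *Atoh1* to *Dll1*, from *Dll1* to *Notch1* and from *Notch2* to *Notch3* were larger than the SD of either gene. The other neighbors in this order did not differ beyond their spread between libraries. Within libraries, *Dll4* was nevertheless above *Jag1* in 6 of 6.

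This order rested in part on which deposited measure was read. A second level per length was made from the deposited read coverage, the average number of reads over each base of a gene, divided by the gigabases of its library. For *Atoh1*, *Jag2* and *Notch3* the FPKM and this coverage had a ratio of 1.0 in each library. The ratio was 1.64 to 1.85 for *Hes1*, 1.66 to 2.09 for *Notch1* and 1.35 to 2.26 for *Dll1*. It was 1.03 to 1.24 for the 3 remaining ligands and receptors, *Dll4*, *Jag1* and *Notch2*, and 1.17 to 1.2 for *Lfng*.

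*Notch1* exceeded *Notch2* by 1.43-fold to 1.72-fold in 6 of 6 libraries by FPKM, but in 0 of 6 by coverage, where *Notch1* was at 0.847 to 0.981 of *Notch2*. By coverage *Dll1* exceeded *Dll4* in 4 of 6 libraries rather than 6, and *Lfng* exceeded *Atoh1* in 0 of 6 rather than 4. *Hes1* was above *Lfng*, and *Notch3* below *Notch2*, in 6 of 6 libraries by both measures.

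The spread of *Dll1* within ApcMin also differed between the measures. By FPKM, QC5 (8.8) lay close to QC6 (9.46) and far above QC4 (4.72), whereas by coverage per gigabase QC5 (3.89) lay close to QC4 (3.49) and QC6 (5.81) stood alone. The ApcMin.PCdel libraries were at 4.17, 3.87 and 4.14, a range that by coverage QC5 fell within, so that leaving out QC4 does not set the groups apart on this measure. GENCODE M21 lists 6 transcripts of *Dll1*, 11 of *Notch1* and 4 of *Hes1*, against 1 of *Atoh1*. It also lists 10 of *Jag2* and 3 of *Notch3*, whose FPKM and coverage had a ratio of 1.0 in each library. *Lfng* has 3, and *Dll4*, *Jag1* and *Notch2* have 2 each. The part of transcript choice in the difference between the measures was not tested.

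**Figure D3:**
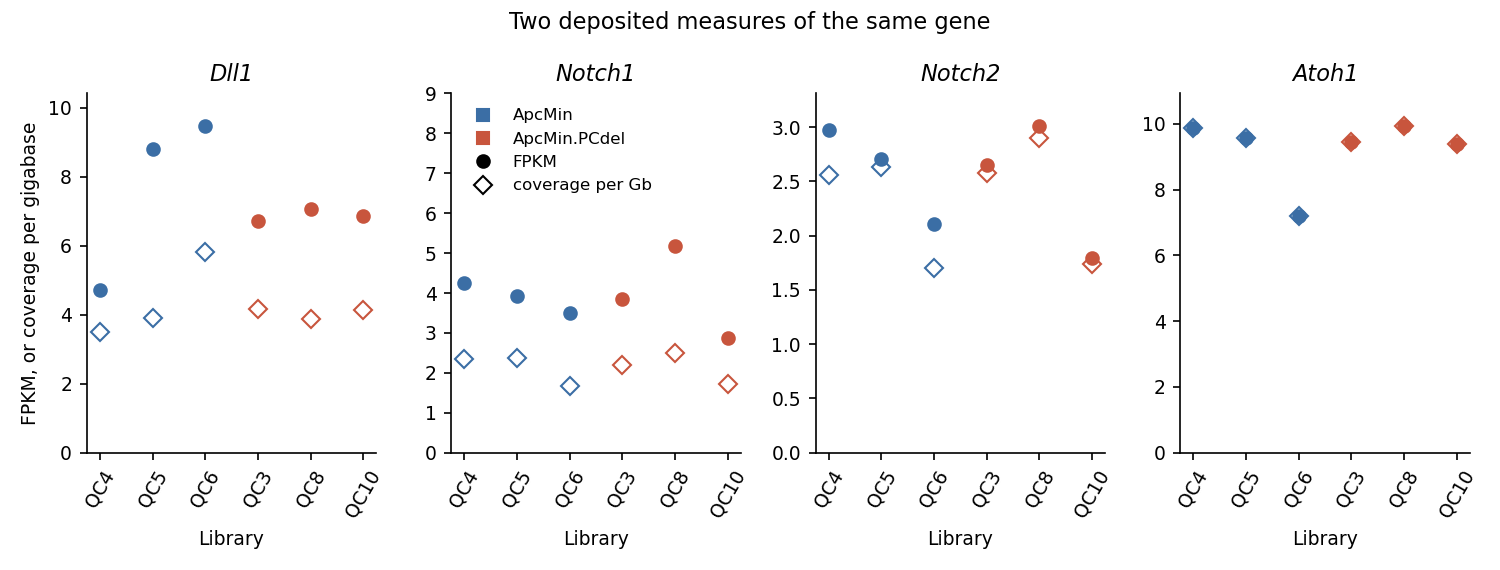
FPKM (filled circles) and coverage per gigabase (open diamonds) of *Dll1*, *Notch1*, *Notch2* and *Atoh1* in each library, ApcMin in blue and ApcMin.PCdel in red. The measures coincide for *Atoh1* and part for *Notch1*, and for *Dll1* in QC5 they are 8.8 and 3.89.

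Several members share sequence with other annotated genes. Of the 31-base words in *Dll1* transcripts, 17.9% also occur in *A930024N18Rik*, a gene on the opposite strand of the same locus that reached at most 0.262 FPKM. For *Dll4* the share was 4.8%, with *Gm14207* on the opposite strand at up to 3.01 FPKM. For *Notch1* it was 9.4%, mostly with *0610009E02Rik* on the opposite strand (7.1%). For *Notch3* it was 6.59% and for *Notch2* 4.28% (with *Gm42820*, on the same strand), and for *Lfng* and *Jag2* it was under 0.1%. Whether the counting used strand is not given in the sources used here, so reads of the antisense pairs cannot be told apart, and the value of *Dll4* is the one nearest in level to its partner. *Jag1*, *Hes1* and *Atoh1* shared none.

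Of 51 further Notch pathway genes, 42 were tested. At an unadjusted p-value of 0.05, limma called 2 of 42 higher and 0 lower in ApcMin.PCdel, against 3.38% of all genes, and none passed after adjustment (adjusted p = 1.0 for each). In 5 of the 42 the groups did not overlap, all higher in ApcMin.PCdel, against 7.54% of all genes. The median log2 fold change of the 42 was 0.08, where all genes tested had 0.04. By fitted value 35 lay higher and 7 lower, where 63.1% of all genes lay higher. No set test was made.

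The genes called, *Neurl1a* and *Neurl1b*, encode Neuralized ubiquitin ligases, which act on Notch ligands. *Neurl1a* was at 1.06, 1.14 and 0.908 FPKM in QC4, QC5 and QC6 and at 1.61, 1.41 and 1.71 FPKM in QC3, QC8 and QC10, with no overlap (log2 fold change 0.34, standard error 0.11, limma unadjusted p = 0.0202, adjusted p = 1.0). *Neurl1b* was at 1.91, 1.86 and 1.16 FPKM and at 2.24, 2.54 and 2.29 FPKM, also with no overlap (log2 fold change 0.36, standard error 0.15, limma unadjusted p = 0.0465, adjusted p = 1.0). The unadjusted p-value of *Neurl1a* stayed under 0.05 in 11 of 14 alternatives, and that of *Neurl1b* in 5 of 14. Of all 17 genes for receptor glycosylation and ligand turnover, 14 lay higher and 3 lower by fitted value, where 63.1% of all genes lay higher. *Mfng* was also without overlap, by a margin of 1.88 to 1.92 FPKM.

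Of 12 tested genes of the nuclear complex, 0 had an unadjusted limma p under 0.05, against 3.38% of all genes. By fitted value 12 lay higher and 0 lower, where 63.1% of all genes lay higher. The 12 include *Rbpj*, whose log2 fold change was 0.0 and whose mean FPKM was slightly lower in ApcMin.PCdel. How many of the 12 stayed higher without QC6 is not given here. The coactivator *Maml3* and the histone deacetylase *Hdac1* were without overlap (log2 fold changes 0.23 and 0.19, limma unadjusted p = 0.107 and 0.132). They were 2 of the 12, against 7.54% of all genes. *Rbpj* itself was at 6.79 ± 0.988 and 6.77 ± 0.59 FPKM (SD, n = 3 each; limma unadjusted p = 1.0, 95% interval -0.31 to 0.31). None of the 9 tested genes of receptor proteolysis had an unadjusted p-value under 0.05, against 3.38% of all genes. By fitted value 8 of them lay higher and 1 lower, where 63.1% of all genes lay higher.

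The other Notch targets did not separate the genotypes. *Hey1*, a *Hes*-related repressor of vessels and other tissues, was at 3.88 ± 0.607 and 3.87 ± 0.51 FPKM (SD, n = 3 each; limma unadjusted p = 0.999). *Nrarp*, a feedback inhibitor induced by Notch, was at 8.94 ± 1.25 and 8.72 ± 2.17 FPKM (SD, n = 3 each; limma unadjusted p = 0.802). *Olfm4*, a stem cell gene whose expression depends on Notch, was at 51.7, 68.4 and 113.0 FPKM in ApcMin and 67.3, 95 and 156 FPKM in ApcMin.PCdel libraries. QC10 was highest and QC6 second, and the interval was wide (log2 fold change 0.44, 95% interval -0.47 to 1.34, limma unadjusted p = 0.289). *Heyl*, *Hes5* and the ligand *Dll3* fell below the filter, with maxima of 0.919, 0.0983 and 0.124 FPKM, and *Hes5* was listed at 0 in 4 of 6 libraries.

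Of 18 listed factors of the secretory lineages, 14 were tested. Of these, 0 had an unadjusted limma p under 0.05, against 3.38% of all genes. The list is broad and holds *Pou2f3*, which is also used here as a tuft marker. The median log2 fold change of the 14 factors was 0.12, where all genes tested had 0.04. Without QC6 it was -0.05, where all genes had -0.0. With array quality weights it was 0.04, where all genes had 0.01. *Gfi1*, which separates goblet and Paneth from enteroendocrine fate, had a log2 fold change of 0.04 (95% interval -0.30 to 0.39, limma unadjusted p = 0.777). *Spdef*, needed for goblet and Paneth maturation, had -0.10 (95% interval -0.64 to 0.44, limma unadjusted p = 0.686). *Xbp1*, a secretory stress factor, was the 1 gene of the 14 without overlap, against 7.54% of all genes. It was at 152.0 to 164.0 FPKM in ApcMin and 165.0 to 174.0 FPKM in ApcMin.PCdel libraries (log2 fold change 0.11, limma unadjusted p = 0.306). *Neurog3*, the enteroendocrine progenitor factor, reached at most 0.905 FPKM and was not tested.

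**Figure D4:**
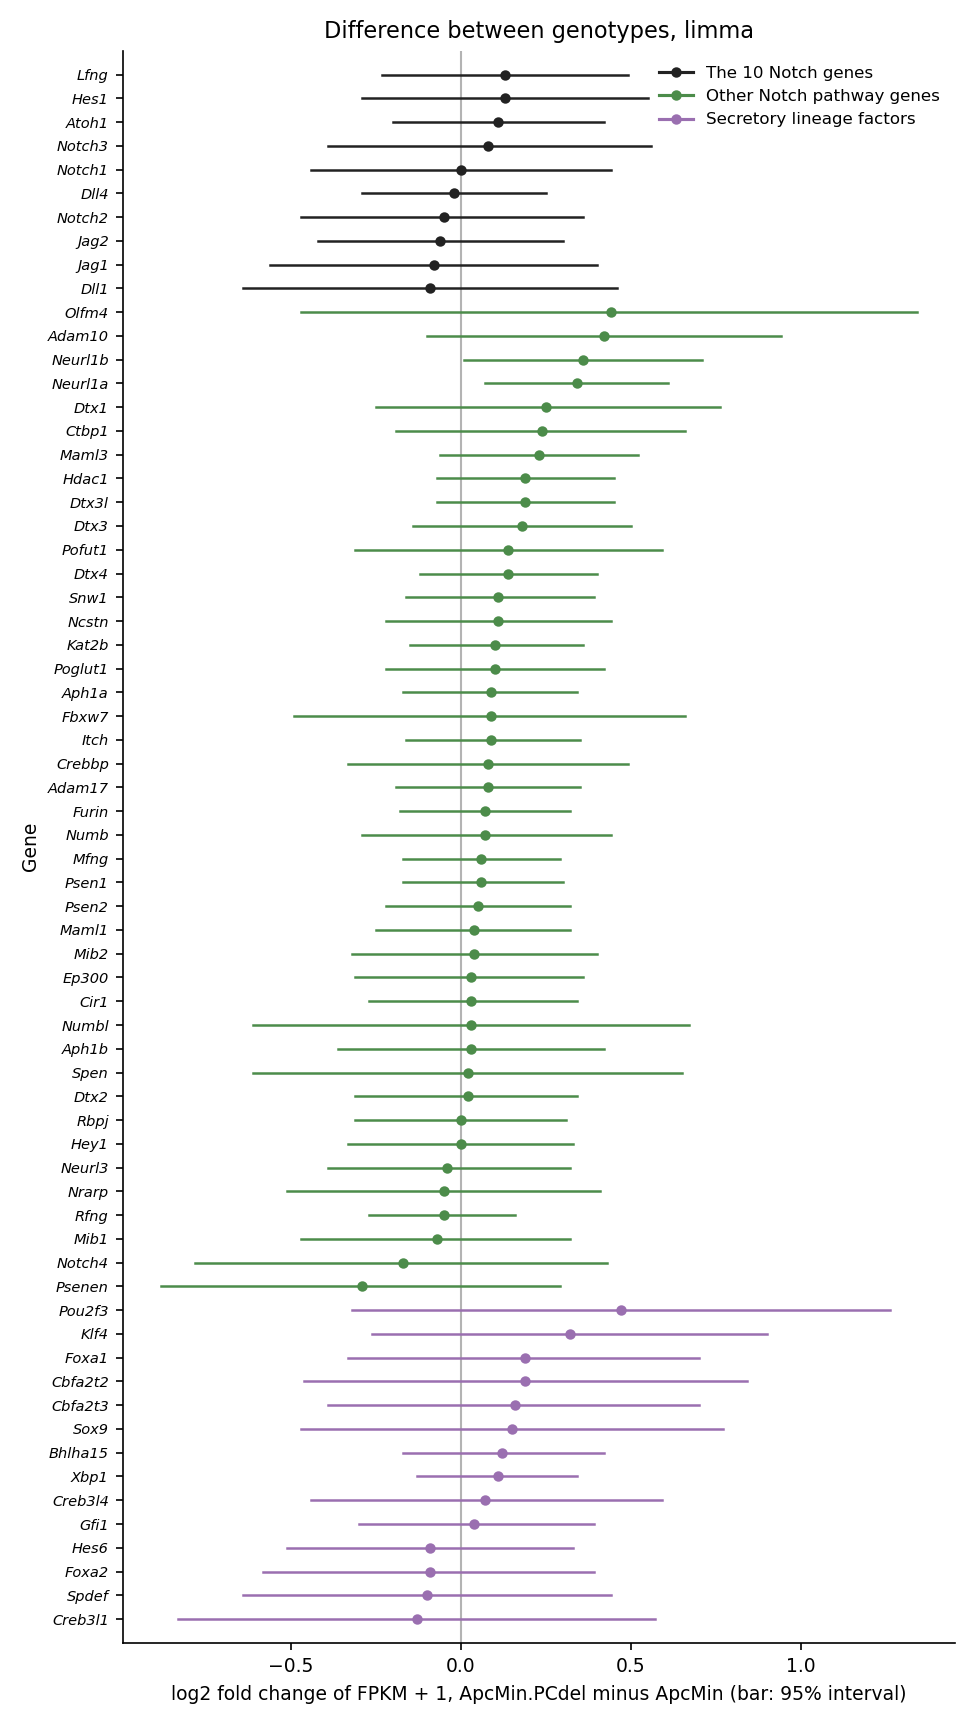
Log2 fold change of FPKM + 1 (ApcMin.PCdel minus ApcMin, limma) with 95% intervals for the 10 Notch genes (black), 42 other Notch pathway genes (green) and 14 secretory lineage factors (purple). The intervals of all 10 Notch genes include 0, and those of *Neurl1a* and *Neurl1b* do not.

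Low values of several members fell in the same libraries of both genotypes. QC6 (ApcMin) and QC10 (ApcMin.PCdel) were the 2 lowest libraries in 5 of the 10 Notch genes, *Jag1*, *Notch1*, *Notch2*, *Notch3* and *Atoh1*, and in 20.4% of all genes tested. For *Atoh1* only QC6 stood apart, since QC10 was at 9.39 FPKM and QC3 at 9.44 FPKM. The pair of QC6 and QC10 was picked after the values were seen, so no test was made. The same pair was lowest in 8 of 10 endothelial, 3 of 8 mural and 3 of 6 fibroblast markers. Among epithelial lists it was lowest in 3 of 7 goblet, 2 of 5 stem cell, 1 of 4 tuft and 1 of 7 general epithelial markers, and in 0 of the PC, enterocyte and enteroendocrine markers. The summed endothelial markers were 45.4 FPKM in QC6 and 53.5 FPKM in QC10, against 65.7 to 86.4 FPKM in the other 4 libraries. By genotype, the endothelial markers summed to 45.4 to 72.7 FPKM in ApcMin and 53.5 to 86.4 FPKM in ApcMin.PCdel, and 0 of 10 passed at an unadjusted p of 0.05. The part of vessel content in the levels of these Notch genes was not tested.

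Of the fibroblast markers, all 6 lay higher in ApcMin.PCdel by fitted value, as did 63.1% of all genes. QC6 was the lowest library in 5 of the 6. Of these markers 3 (*Pdgfra*, *Dcn* and *Col6a1*) had an unadjusted limma p under 0.05, against 3.38% of all genes. The same 3 were without overlap, against 7.54% of all genes, and 0 passed after adjustment. The 6 markers summed to 157 to 229 FPKM in ApcMin and 204 to 320 FPKM in ApcMin.PCdel. The summed goblet markers were 8284 to 10393 FPKM and 8649 to 10010 FPKM, with 0 of 7 at an unadjusted limma p under 0.05. Of 6 tested leukocyte markers *Adgre1* passed (log2 fold change 0.38, limma unadjusted p = 0.0287, adjusted p = 1.0), and of the enteroendocrine, tuft, stem cell, mural and enterocyte markers none did. The part of these cells in the Notch values was not tested.

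A Notch gene and a marker list were compared in each of 6 pairs over the 6 libraries, with the marker level as the mean log2(FPKM + 1) of its list. *Jag1* and endothelial markers had r = 0.74 (exact permutation p = 0.104) and Spearman rho = 0.54 (p = 0.297), and r = 0.93 without QC6 and QC3, the 2 libraries farthest from the median of the markers. *Dll4* and endothelial markers had r = 0.6 (exact permutation p = 0.208) and rho = 0.37 (p = 0.497), and r = 0.98 without the same 2 libraries. *Notch3* and mural markers had r = 0.42 (exact permutation p = 0.389) and rho = 0.54 (p = 0.297), and r = 0.95 without QC4 and QC8. None of these relations passed at an unadjusted p of 0.05. The r values without 2 libraries rest on the few libraries left.

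*Dll1* and PC markers had r = 0.52 (exact permutation p = 0.294) and rho = 0.6 (p = 0.242). The sign turned to r = -0.72 without QC5 and QC6, so the positive value rested on those libraries. The PC marker level was 8.48 to 9.23 in ApcMin and 7.52 to 8.16 in ApcMin.PCdel libraries. Spread between libraries and the genotype difference therefore cannot be told apart in this pair. *Hes1* and enterocyte markers had r = -0.87 (exact permutation p = 0.0542) and rho = -0.71 (p = 0.136), and r = -0.38 without QC6 and QC8. QC6 had the highest enterocyte markers and the lowest *Hes1*. *Atoh1* and goblet markers had r = 0.49 (exact permutation p = 0.385), rho = 0.89 (exact permutation p = 0.0333, adjusted p = 0.2 over the 6 pairs), and r = 0.72 without QC8 and QC10. Over the 6 pairs the adjusted p-values were 0.312 to 0.389 for r and 0.2 to 0.497 for rho.

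**Figure D5:**
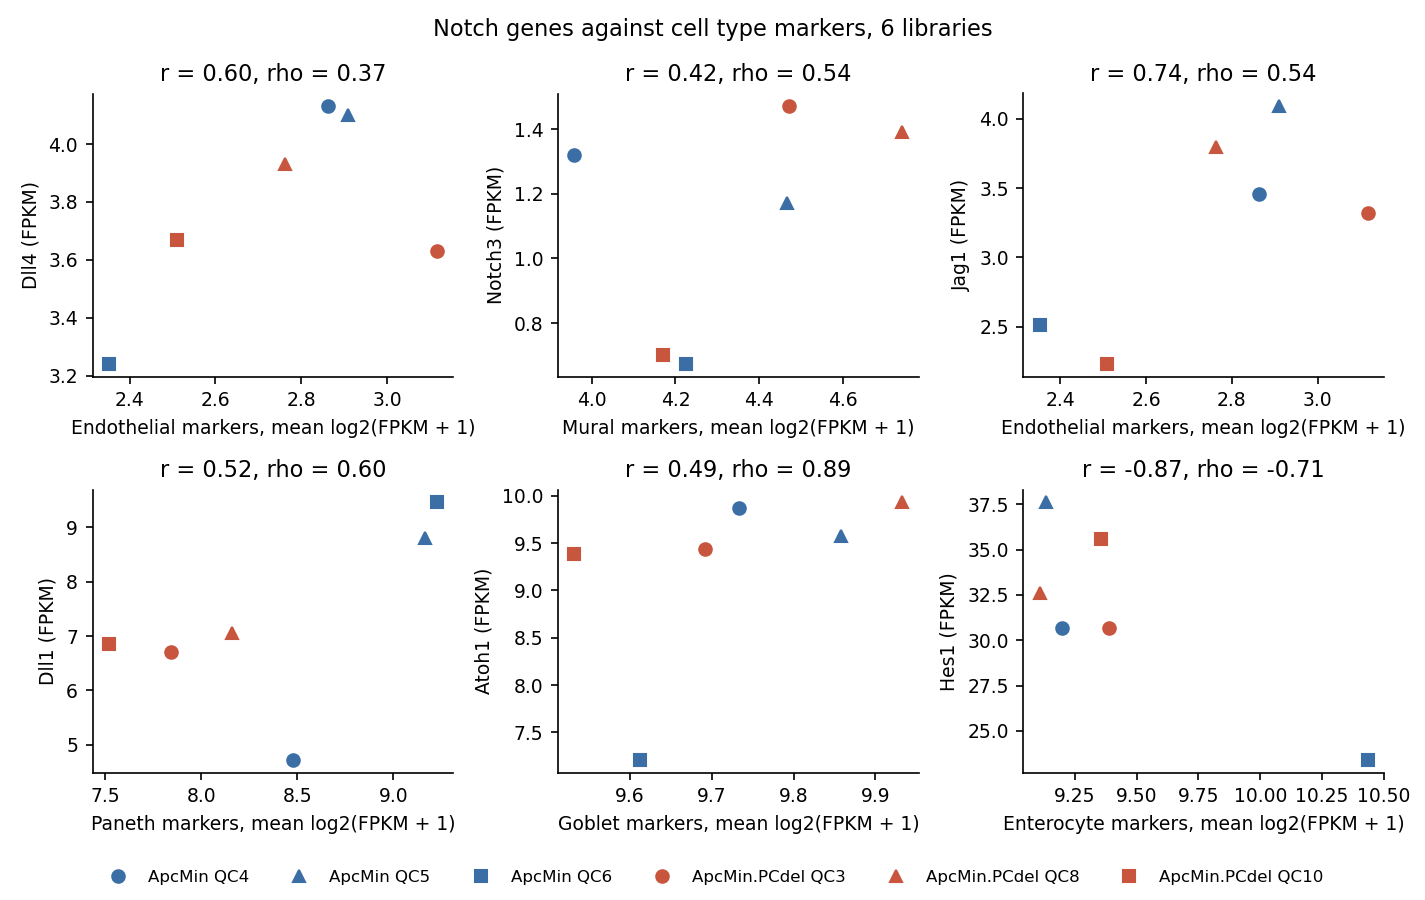
FPKM of a Notch gene against the mean log2(FPKM + 1) of a marker list in each of 6 libraries, for the 6 pairs compared, with r and rho above each panel. In the *Hes1* panel QC6 lies alone at the right (r = -0.87 with it, -0.38 without QC6 and QC8), and in the *Dll1* panel the ApcMin library QC4 lies below the rest.

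The promoters of the members were searched for the core of the RBPJ site, TGGGAA, and for the N-box bound by HES factors, CACNAG, on both strands in the 250 bases before each start site in RefSeq (GRCm38.p6). Of the 10 members, 9 had an entry, with 10 windows since *Dll1* has 2 starts, and *Hes1* was not matched. TGGGAA was present in 1 of 10 windows, that of *Lfng*, and in 21.6% of 32851 windows of all genes. CACNAG was present in 5 of 10 (*Notch1*, *Dll4*, *Notch2*, *Lfng* and *Notch3*) and in 36.7% of all windows. A match is a description of the letters and not a site shown to be used.

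The *Lfng* window (chr5:140607091-140607310, plus strand) and the start of that of *Hes5* (chr4:154960673-154960769, plus strand) are shown because both hold TGGGAA on both strands, while *Lfng* was at 7.37 to 11.0 FPKM and *Hes5* at no more than 0.0983 FPKM. Capitals mark TGGGAA or its reverse complement TTCCCA. The forward match of *Hes5*, at position -82 from its start, lies beyond the stretch shown.
Lfng: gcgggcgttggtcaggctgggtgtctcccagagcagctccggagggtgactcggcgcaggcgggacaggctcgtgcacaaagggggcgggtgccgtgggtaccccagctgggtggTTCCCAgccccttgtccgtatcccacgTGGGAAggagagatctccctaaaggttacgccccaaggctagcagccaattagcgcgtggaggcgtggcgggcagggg
Hes5: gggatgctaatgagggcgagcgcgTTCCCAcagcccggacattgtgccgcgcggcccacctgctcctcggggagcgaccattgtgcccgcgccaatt
In *Lfng* the matches stand at positions -135 (reverse) and -108 (forward) from the start.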

How the data were processed

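The authors prepared libraries from adenoma RNA with the TruSeq RNA kit, sequenced them on a HiSeq2500, and used CLC Genomics Workbench 7 with a normalization in MatLab whose settings are not in the text. For each library the authors deposited a table of genes with FPKM, TPM and coverage. The deposited FPKM is scaled for length and library size, the deposited TPM is scaled to a fixed library sum, and the deposited coverage, a signal of mean read depth, is not scaled. The program behind these columns is not given in the sources used here, and gene positions match GRCm38.

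Separate entries of 1 gene were summed. Gigabases per library were taken as the most common ratio of coverage to FPKM. Read numbers were not derived, so no counting interval is given and depth beyond gigabases is unknown. Genotypes were compared with limma 3.58.1 in R 4.3.3 (trend) on log2(FPKM + 1) over 14240 genes with a mean of at least 1 FPKM, with Benjamini-Hochberg adjustment. Python 3.11.15 gave exact permutation tests and shared 31-base words in GENCODE M21 transcripts. The fit was tested on simulated data. Named were all 10 members, fixed relatives (*Notch4*, *Dll3*, other fringes, *Rbpj*, *Hes5*, *Hey1*, *Heyl*, *Nrarp*, *Olfm4*, *Gfi1*, *Spdef*, *Neurog3*), listed genes with unadjusted p under 0.05, pathway and secretory genes without overlap, and *Defa21*, *Defa22* and *Lyz1*. Members and lists were chosen with earlier results of these data known. Coverage per gigabase in place of FPKM was added as an alternative after the data were seen, as were the library pair QC6 and QC10 and the pairwise comparisons of levels within libraries. The alternatives were a pseudocount of 0.1, no filter or a minimum of 5 FPKM, quantile normalization, TPM, median centring, no trend, array quality weights and each library left out. A count model was not run, since FPKM are not counts. One gene of the wider pathway list is not reported here and was left out of that list's counts and medians.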

Additional observations from a re-analysis of the deposited data

How the results depend on the processing

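The depth is known only in gigabases, and 3 libraries a group limit the permutation test to p = 0.1. Of the values under the alternatives, 35 turned direction, 39 moved and 199 were classed as unchanged. The cause was not tested except where fewer libraries or genes entered. The class of unchanged values is broad. It holds *Dll1* without QC4, whose unadjusted limma p went from 0.712 to 0.0187. It also holds the unadjusted calls over all genes with TPM, 661 against 481. Directions turned for *Dll4* with TPM (log2 fold change 0.03), for *Notch1* with TPM (0.05), array quality weights (0.02) and coverage per gigabase (0.003), for *Hes1* with array quality weights (-0.10), for *Notch2* with coverage (0.04), and for the share of *Notch1* with coverage (difference -1.39 percentage points). With each library left out, the log2 fold change ran from -0.36 to 0.07 for *Dll1*, -0.11 to 0.03 for *Dll4*, -0.23 to 0.08 for *Jag1*, -0.21 to 0.04 for *Jag2*, -0.17 to 0.17 for *Notch1*, -0.16 to 0.10 for *Notch2*, -0.06 to 0.25 for *Notch3*, -0.05 to 0.28 for *Hes1*, -0.01 to 0.25 for *Lfng* and -0.02 to 0.18 for *Atoh1*, and 1 to 8 members lay higher. The difference ran from -0.06 to 0.11 for the log2 ratio of *Hes1* to *Atoh1*, from -3.87 to 4.58 percentage points for the Delta share of the ligands and from -1.05 to 1.92 for the *Notch1* share. Over all genes, leaving out a library gave 1 to 5 adjusted calls, 358 to 820 unadjusted calls and 1808 to 3370 genes without overlap, the last with fewer libraries to overlap by construction. Adjusted calls were 1 with no filter and 1 with median centring. Unadjusted calls were 976 with no filter, 260 with a minimum mean of 5 FPKM and 1270 with array quality weights, and genes without overlap were 1942 and 622 with the first 2 of these. The share of unadjusted calls that were higher was 79.8%, and 63.5% with array quality weights, 61.4% with median centring, 59.4% without QC6 and 58.9% with quantile normalization. In the wider pathway, unadjusted calls were 1 with no filter, 1 with a pseudocount of 0.1, 0 with the minimum of 5 FPKM, 0 with quantile normalization, 4 with array quality weights and 0 to 3 with a library left out. Its median log2 fold change was 0.03 with quantile normalization, 0.13 with TPM, 0.03 with median centring and 0.05 to 0.10 with a library left out. The secretory median was 0.19 with TPM, 0.04 with array quality weights and -0.05 to 0.16 with a library left out. The minimum of 5 FPKM kept *Dll1*, *Hes1*, *Lfng* and *Atoh1* among the members. No paired analysis was possible because the library numbers do not link the genotypes.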
